A study of Mus musculus with 12 samples.

Results

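Aminoacyl-tRNA synthetases join each amino acid to its transfer RNA, the step that supplies the ribosome with charged transfer RNAs. Animal cells make separate sets of these enzymes for the cytosol and for mitochondria, both from nuclear genes, and the mitochondrial ones mostly carry the suffix 2 in their symbols. Uncharged transfer RNA is sensed by the kinase Gcn2, which leads to translation of the transcription factor Atf4. Several cytosolic synthetase genes are known Atf4 targets, and T cells are known to raise protein synthesis when their antigen receptor is engaged. The genes described here are the 36 synthetase genes chosen by symbol, 20 cytosolic and 16 mitochondrial, among 23479 genes listed in the count tables. All 36 were listed, and all 36 passed the filter on low counts that left 10981 genes for testing. Gars and Kars, placed with the cytosolic set, are known to encode both the cytosolic and the mitochondrial enzyme, and Eprs encodes 1 protein that charges both glutamate and proline.

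RNA was sequenced from CD4+ T cells of mouse spleen, enriched by removal of other cells. The mice were C57BL/6J wild-type animals (WT) or Sirt2-/- animals (KO) on a C57BL/6 background, the latter lacking the NAD-dependent protein deacetylase Sirt2, with age and sex not stated in the labels. Cells were lysed straight after isolation (0 h, labelled naive) or cultured for 24 h with immobilised anti-CD3 (5 µg/ml), an antibody that engages the T cell receptor complex. No group was cultured for 24 h without anti-CD3, so in every comparison over time stimulation and culture cannot be told apart. Each of the 4 groups had 3 libraries. Whether the 3 came from separate mice is not stated in the labels, so p-values measure the spread between libraries, which may be technical.

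Gene reads per library, in megareads, ranged from 3.63 to 10.03. Levels are given as CPM, read counts per megaread of library size times its TMM factor. Sirt2 itself lay between 62.3 and 85.4 CPM in the 6 WT libraries and between 9.04 and 19.7 CPM in the 6 KO libraries. The summed level of 7 CD4+ T cell markers, Cd4 and Cd3e among them, ranged from 5563 to 6621 CPM at 0 h and from 2609 to 3003 CPM at 24 h, and 6 of the 7 passed as lower at 24 h in WT and 7 of 7 in KO. The sum of 7 B cell markers was 16.9 to 29.9 CPM at 0 h and 2.93 to 7.22 CPM at 24 h. Of the myeloid markers, 6 of 7 were listed, with sums of 15.1 to 21.5 CPM at 0 h and 7.22 to 18.3 CPM at 24 h. The 2 CD8 T cell markers summed to 17.3 to 18.5 CPM in WT and 30.8 to 35.8 CPM in KO at 0 h. At 24 h they summed to 8.09 to 14.7 CPM. The 4 NK cell markers summed to 36.04 to 52.7 CPM at 0 h and 44.8 to 65.5 CPM at 24 h. The 2 that were tested passed in opposite directions over time. Klrb1c was lower at 24 h (log2 -4.597 in WT and -5.007 in KO) and Eomes higher (1.136 and 1.351). At 24 h Klrb1c had at most 0.919 CPM and Eomes at least 43.97 CPM, so the NK sum was then mostly Eomes. Red cell and platelet markers summed to at most 0.402 CPM, with Hba-a1, Hbb-bs and Ppbp at 0 reads. Between genotypes at 0 h, the CD8 marker Cd8b1 was higher in KO (log2 0.85, edgeR adjusted p = 0.0176). The B cell marker Cd22 was lower (-2.49, edgeR adjusted p = 0.0118), and no other tested marker passed at either time. The other 2 of the 3 tested B cell markers had positive values. B cell sums at 0 h overlapped, at 21.1 to 29.9 CPM in WT and 16.9 to 28.6 CPM in KO. The part of these marker changes in the synthetase results was not tested. In bulk RNA, fewer cells of a type and less RNA per cell cannot be told apart.

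The sequences before the start sites of a few synthetase genes are shown first, because they hold, or in the case of Tars2 do not hold, a short element that is set beside the RNA changes at the end. TGATGNAA is the core of the C/EBP-ATF response element, which Atf4 is known to bind, and CACGTG is the E-box that Myc and related factors bind. Both were searched on both strands, in windows from 250 bases before to 50 bases after the start given by RefSeq (build GRCm38.p6), and no match of 1 motif overlapped a match of the other. Promoters were matched for 27 of the 36 genes, 13 cytosolic and 14 mitochondrial. In the lines that follow, capitals mark matches, TTGCATCA and TTTCATCA being TGATGNAA read on the opposite strand. The Aars window is chr8:111033592-111033841 on the plus strand, the Gars window chr6:55037751-55038000 on the plus strand and the Tars window chr15:11399659-11399908 on the minus strand. Tars2 is shown as the mitochondrial counterpart of Tars, at chr3:95754978-95755227 on the minus strand. The short stretches lie at or just after the start on the plus strand, at chr8:111033841-111033868 for Aars, chr13:49682127-49682154 for Iars and chr4:129189896-129189923 for Yars.
Aars, before the start: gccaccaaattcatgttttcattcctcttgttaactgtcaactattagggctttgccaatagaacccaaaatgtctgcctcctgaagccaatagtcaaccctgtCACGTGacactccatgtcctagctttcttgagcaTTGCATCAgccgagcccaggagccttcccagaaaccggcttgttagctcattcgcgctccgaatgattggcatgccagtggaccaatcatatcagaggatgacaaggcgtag
Gars, before the start: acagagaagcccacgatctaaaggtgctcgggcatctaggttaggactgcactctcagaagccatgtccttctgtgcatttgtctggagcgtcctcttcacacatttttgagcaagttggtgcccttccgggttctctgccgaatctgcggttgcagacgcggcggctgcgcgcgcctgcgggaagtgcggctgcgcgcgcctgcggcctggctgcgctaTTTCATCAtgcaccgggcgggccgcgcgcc
Tars, before the start: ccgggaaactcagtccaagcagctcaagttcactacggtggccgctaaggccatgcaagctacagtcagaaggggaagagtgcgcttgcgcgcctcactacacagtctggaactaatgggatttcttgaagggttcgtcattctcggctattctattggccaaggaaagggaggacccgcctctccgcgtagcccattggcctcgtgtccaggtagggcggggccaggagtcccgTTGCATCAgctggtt
Tars2, before the start: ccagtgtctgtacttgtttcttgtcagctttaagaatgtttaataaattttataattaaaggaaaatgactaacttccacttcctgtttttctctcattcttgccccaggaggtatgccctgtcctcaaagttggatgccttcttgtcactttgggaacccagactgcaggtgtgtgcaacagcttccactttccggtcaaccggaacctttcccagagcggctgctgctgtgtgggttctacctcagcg
Aars, across the start: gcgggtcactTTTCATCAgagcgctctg
Iars, across the start: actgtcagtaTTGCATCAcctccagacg
Yars, across the start: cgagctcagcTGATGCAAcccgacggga

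The first question was what the cells did with their synthetase RNA in 24 h on anti-CD3. Cytosolic synthetase RNA rose broadly in both genotypes, led by the tryptophanyl-, cysteinyl- and alanyl-tRNA synthetases, while few mitochondrial synthetases passed the test and the RNA with the highest level among them, Lars2, fell. Of the 20 cytosolic genes, 16 passed as higher at 24 h in WT and 15 in KO, by edgeR's quasi-likelihood test with Benjamini-Hochberg adjustment over all genes tested, and 0 passed as lower in either by edgeR or by DESeq2, with 1 gene of negative sign, Dars in KO, at an unadjusted p below 0.05. Over all tested genes, 20.2% passed as higher in WT and 19.4% in KO. The same 15 cytosolic genes passed in both genotypes, against 15.3% of all genes, and 11 of them also had a log2 fold change of at least 1 in both, which 4.42% of all genes had. For 15 of the 20 every one of the 6 libraries at 24 h lay above every one of the 6 at 0 h, as it did for 15.1% of all genes. The median log2 fold change of the 20 was 1.28 in WT and 1.33 in KO, beside 0.0027 and -0.0028 over all genes.

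**Figure D1:**
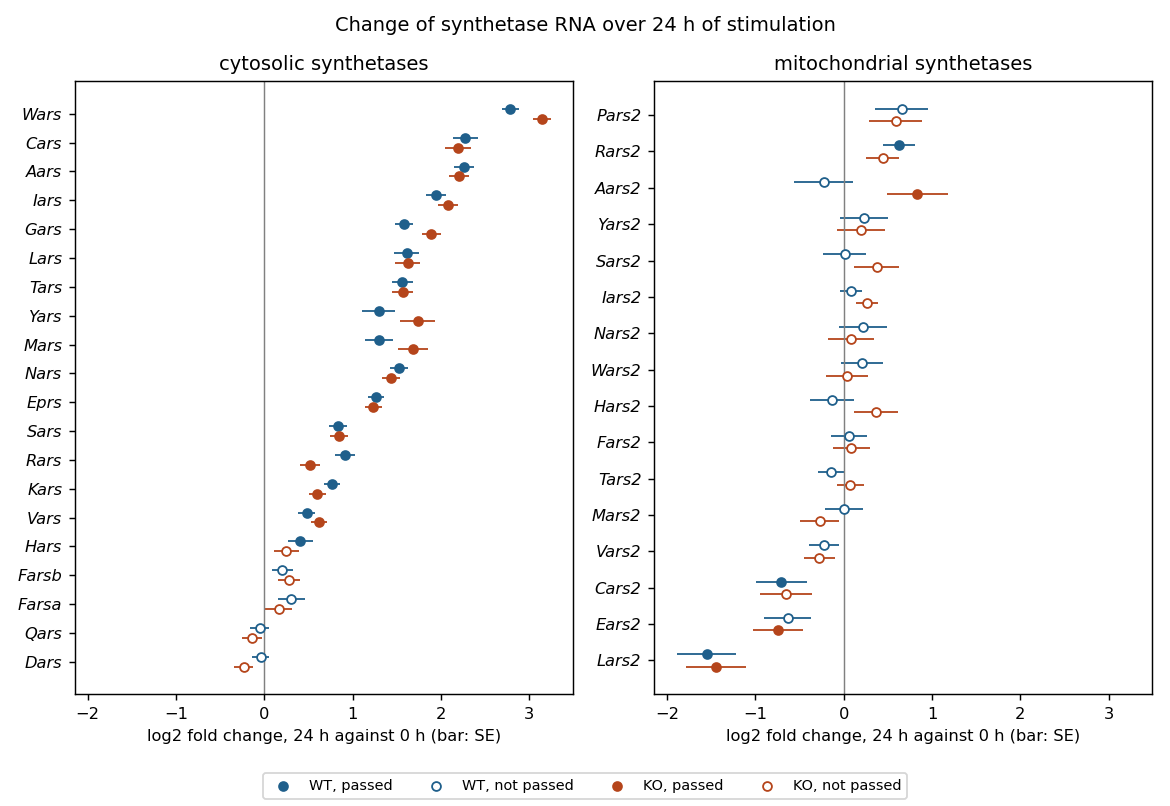
Log2 fold change of RNA at 24 h against 0 h for the 20 cytosolic (left) and 16 mitochondrial (right) synthetase genes, in WT and KO, with bars giving the standard error and filled points the genes that passed the test. The cytosolic points reach from near 0 for Dars and Qars to 2.78 and 3.14 for Wars, while the mitochondrial points lie on both sides of 0, between -0.74 and 0.84 apart from Lars2 at -1.55 and -1.45.

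Wars, which charges tryptophan and is also known as an interferon-induced gene, had the steepest change. Its WT libraries read 48.0, 43.5 and 39.4 CPM at 0 h and 290.1, 304 and 304 CPM at 24 h. The KO libraries read 48.5, 43.1 and 40.1 CPM at 0 h and 380.2, 383 and 408 CPM at 24 h. All 6 libraries at 24 h stood far above all 6 at 0 h, and the KO libraries at 24 h were the highest of all. The fold change was 6.88 in WT (log2 2.78, SE 0.0966, edgeR adjusted p = 2.32e-27) and 8.83 in KO (log2 3.14, SE 0.0975, edgeR adjusted p = 3.26e-29). Its share of the summed cytosolic synthetase CPM went from 3.50% ± 0.451 to 10.7% ± 0.590 in WT and from 3.66% ± 0.310 to 14.2% ± 0.652 in KO (SD, n = 3).

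Cars charges cysteine and Aars charges alanine. The Cars libraries read 15.2, 18.3 and 17.8 CPM in WT and 20.7, 13.9 and 12.8 CPM in KO at 0 h, and 85.6, 83.1 and 81.1 CPM in WT and 76.9, 66.6 and 78.4 CPM in KO at 24 h. The times were widely separated, with every library at 24 h above 3 times the highest at 0 h. Cars rose by log2 2.28 in WT (SE 0.143, edgeR adjusted p = 6.09e-18) and 2.19 in KO (SE 0.146, edgeR adjusted p = 4.93e-17). Aars read 36.2, 52.2 and 44.3 CPM in WT and 39.3, 42.8 and 49.7 CPM in KO at 0 h, then 191, 205 and 239.9 CPM in WT and 191, 199 and 211 CPM in KO at 24 h. Here too the times did not overlap and the genotypes did. Aars rose by log2 2.26 in WT (SE 0.112, edgeR adjusted p = 1.28e-21) and 2.20 in KO (SE 0.113, edgeR adjusted p = 5.09e-21). Its exons share 1326 bases with those of Exosc6 on the same strand, so reads there could be split or set aside by the authors' counting.

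Iars, Gars and Lars charge isoleucine, glycine and leucine. Iars read 47.3, 49.6 and 45.3 CPM in WT and 36.04, 51.8 and 39.2 CPM in KO at 0 h, and 161, 193 and 192 CPM in WT and 196, 161 and 177 CPM in KO at 24 h. Gars read 61.0, 77.9 and 65.0 CPM in WT and 48.9, 55.5 and 52.2 CPM in KO at 0 h, and 192, 192 and 226 CPM in WT and 188, 209.5 and 181 CPM in KO at 24 h. Lars read 33.3, 24.1 and 26.5 CPM in WT and 20.6, 29.5 and 37.1 CPM in KO at 0 h, and 83.8, 82.4 and 88.7 CPM in WT and 86.9, 87.2 and 89.8 CPM in KO at 24 h. In all of these the 6 libraries at 24 h lay above the 6 at 0 h. The log2 fold changes in WT and KO were 1.94 and 2.08 for Iars (SE 0.111 and 0.114, edgeR adjusted p = 2.45e-19 and 4.82e-20). For Gars they were 1.58 and 1.89 (SE 0.101 and 0.104, edgeR adjusted p = 1.14e-17 and 6.43e-20), and for Lars 1.61 and 1.62 (SE 0.140 and 0.142, edgeR adjusted p = 3.52e-13 and 4.28e-13).

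**Figure D2:**
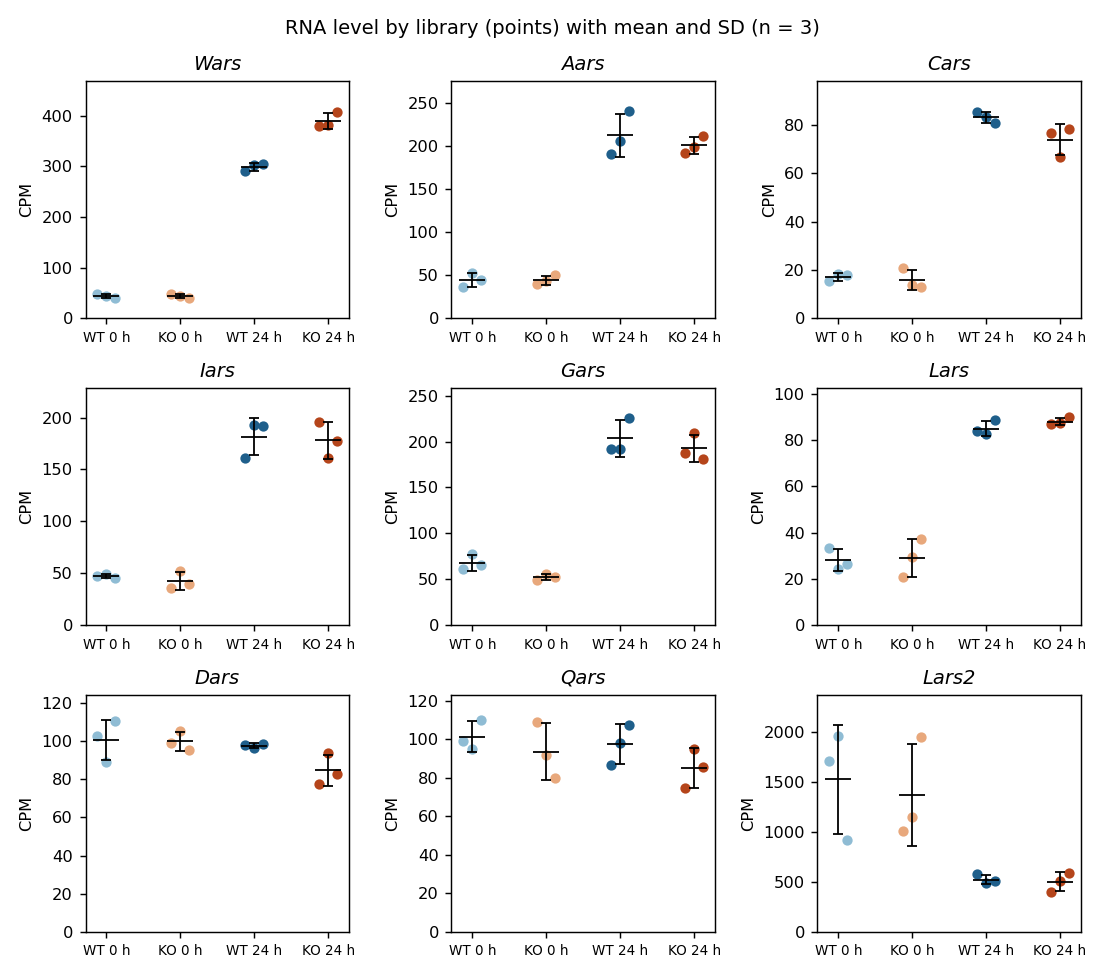
RNA level in CPM in every library (points) with the group mean and SD (n = 3) for 9 synthetase genes, each axis from 0. Wars, Aars, Cars, Iars, Gars and Lars separate 24 h from 0 h in both genotypes, Dars and Qars lie between 74.5 and 110.4 CPM in every library, and Lars2 scatters from 917 to 1963 CPM at 0 h and lies at 401 to 590 CPM at 24 h.

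Among the other cytosolic genes, Tars, Nars, Yars, Mars and Eprs rose by log2 1.27 to 1.56 in WT and 1.23 to 1.73 in KO. Sars, Rars, Kars and Vars also passed in both genotypes, with log2 fold changes of 0.48 to 0.91 in WT and 0.52 to 0.84 in KO. Mars shares 68 exon bases with Ddit3 on the opposite strand, and without a stated strand setting reads there cannot be assigned, while Ddit3 had log2 fold changes of 0.02 and 0.21 and passed in neither genotype. Hars passed in WT (log2 0.41, edgeR adjusted p = 0.0143) and not in KO (log2 0.25, edgeR adjusted p = 0.169). That call in WT was lost without the first WT library at 0 h or the first at 24 h (edgeR adjusted p up to 0.07).

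The 4 cytosolic genes that passed in neither genotype were Dars, Qars, Farsa and Farsb, which charge aspartate, glutamine and, as the alpha and beta subunits of a single enzyme, phenylalanine. Dars read 103, 89.2 and 110.4 CPM in WT and 99.2, 105 and 95.3 CPM in KO at 0 h, and 98.1, 96.3 and 98.8 CPM in WT and 77.8, 93.7 and 82.9 CPM in KO at 24 h. Qars read 98.9, 95.2 and 110.3 CPM in WT and 109, 92.0 and 79.8 CPM in KO at 0 h, and 86.8, 98.3 and 107 CPM in WT and 74.5, 95.1 and 85.8 CPM in KO at 24 h. Libraries of both times overlapped for both genes except for Dars in KO, where those at 24 h lay just below those at 0 h, and these were the only cytosolic genes with negative values in both genotypes. Their log2 fold changes were -0.04 in WT and -0.24 in KO for Dars (edgeR adjusted p = 0.756 and 0.0608) and -0.05 and -0.15 for Qars (edgeR adjusted p = 0.725 and 0.322). Farsa had 0.31 and 0.16 (edgeR adjusted p = 0.11 and 0.436) and Farsb 0.20 and 0.28 (edgeR adjusted p = 0.183 and 0.0691).

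Within the cytosolic set, 8 genes encode subunits of the multisynthetase complex, the large assembly that holds part of the cytosolic synthetases together, and Dars and Qars are among them. Of the 8, 6 passed as higher in each genotype, with a median log2 fold change of 1.09 in WT and 0.91 in KO. Of the 12 genes outside the complex, 10 passed in WT and 9 in KO, with medians of 1.41 and 1.499. Split by the catalytic fold of the enzyme, class I had 9 of 10 genes higher in each genotype (medians 1.29 and 1.65) and class II 7 of 10 in WT and 6 of 10 in KO (medians 0.80 and 0.72). Eprs, which charges both glutamate and proline, was counted in class I only. These splits were not tested against each other. Of the scaffold subunits of the complex, Aimp1 rose in WT (log2 0.53, edgeR adjusted p = 0.00202) and KO (0.42, 0.0154), Eef1e1 passed in KO (0.90, 0.000924) and not in WT (0.38, 0.143), and Aimp2 passed in neither.

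The mitochondrial synthetases gave few calls. In WT, 1 of 16 passed as higher (Rars2) and 2 as lower (Lars2, Cars2). In KO, 1 passed as higher (Aars2) and 2 as lower (Lars2, Ears2), and 11 of the 16 passed in neither genotype. Among all tested genes, 20.5% passed as lower in WT and 21% in KO. The median log2 fold change of the 16 was 0.0079 in WT and 0.085 in KO.

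Lars2, the mitochondrial leucyl-tRNA synthetase, was the only mitochondrial member called in both genotypes in the fit reported here. Its libraries read 1710.1, 1963 and 917 CPM in WT and 1008, 1147 and 1952 CPM in KO at 0 h, and 576, 485 and 506 CPM in WT and 401, 513 and 590 CPM in KO at 24 h. The libraries at 0 h scattered widely within each genotype, yet all lay above those at 24 h. Lars2 and Ears2 were the 2 mitochondrial genes with all 6 libraries at 24 h below all 6 at 0 h, where 15.7% of all genes showed that. Lars2 fell by 1.55 on the log2 scale in WT (SE 0.338, edgeR adjusted p = 0.00563) and by 1.45 in KO (SE 0.339, edgeR adjusted p = 0.00836). Rn45s, the entry for precursor ribosomal RNA, moved the same way: it ranged from 134799 to 190042 CPM at 0 h and from 71328 to 93012 CPM at 24 h, and fell by 0.87 in WT and by 1.12 in KO on the log2 scale (edgeR adjusted p = 7.41e-08 and 1.83e-10). Its part in the Lars2 result was not tested.

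The mitochondrial genes described next had at most 31.8 CPM in any library. Ears2, for glutamate, read 9.01, 12.7 and 10.0 CPM in WT and 8.04, 13.1 and 11.3 CPM in KO at 0 h, and 6.23, 7.69 and 6.42 CPM in WT and 4.76, 7.51 and 6.97 CPM in KO at 24 h, all of them below every library at 0 h. It was lower by log2 0.74 in KO (log2 fold change -0.74, edgeR adjusted p = 0.0315) and missed the threshold in WT (-0.64, adjusted p = 0.0546). Cars2, for cysteine, read 9.18, 12.6 and 9.51 CPM in WT and 9.76, 8.23 and 15.3 CPM in KO at 0 h, and 7.43, 7.12 and 4.74 CPM in WT and 8.97, 4.37 and 7.71 CPM in KO at 24 h. The WT groups did not overlap and the KO groups did, with log2 fold changes of -0.71 (edgeR adjusted p = 0.0459) and -0.65 (0.0728). Cars2 shares 422 exon bases with Naxd.

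Rars2, for arginine, read 22.7, 15.9 and 15.9 CPM in WT and 17.4, 20.01 and 16.9 CPM in KO at 0 h, and 28.5, 31.8 and 23.3 CPM in WT and 29.5, 23.6 and 20.4 CPM in KO at 24 h. All 3 libraries at 24 h were above those at 0 h within each genotype, by a narrow margin. It rose by log2 0.63 in WT (SE 0.180, edgeR adjusted p = 0.004) and missed the threshold in KO (0.44, adjusted p = 0.0516). Aars2, for alanine, read 5.02, 6.10 and 8.39 CPM in WT and 4.72, 5.49 and 3.77 CPM in KO at 0 h, and 7.43, 4.36 and 5.30 CPM in WT and 10.8, 4.54 and 9.95 CPM in KO at 24 h. The times overlapped in both genotypes, and 1 KO library at 24 h lay within the range of 0 h. Its log2 fold change was 0.84 in KO (SE 0.342, edgeR adjusted p = 0.0466) and -0.23 in WT (adjusted p = 0.619). Pars2, for proline, had 3.77 to 7.75 CPM at 0 h and 6.96 to 11.2 CPM at 24 h, with log2 fold changes of 0.66 and 0.59 that did not pass (edgeR adjusted p = 0.0751 and 0.121).

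Calls on these low mitochondrial genes were fragile. The Cars2 call in WT was lost under 9 of 12 other settings (edgeR or DESeq2 adjusted p up to 0.202), the Aars2 call in KO under 6 of 12 (up to 0.262) and the Ears2 call in KO under 5 of 12 (up to 0.177). In the other direction, Rars2 in KO passed under 7 of 12 other settings, the replicate block among them (adjusted p from 0.0309 to 0.315 over the 12), and Rars2 in WT passed under all 12. The remaining members did not pass in either genotype. Vars2 was negative in both, at -0.22 in WT and -0.28 in KO. Hars2 and Tars2 were negative in WT (-0.13 and -0.14) and positive in KO (0.37 and 0.08), and Mars2 was 0.0053 in WT and -0.27 in KO. Hars and Hars2 share 195 exon bases, and Iars2 shares 2034 with Rab3gap2 and Fars2 exon bases with Lyrm4 and Nrn1, so their counts are uncertain to that extent.

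Summed over its 20 genes, the cytosolic set made 1253 ± 68.9 CPM in WT and 1197 ± 14.5 CPM in KO at 0 h, and 2791 ± 196 CPM in WT and 2745 ± 44.2 CPM in KO at 24 h (SD, n = 3). The 24 h mean was 2.23 times that at 0 h in WT and 2.29 times in KO. With raw library size in place of TMM, the cytosolic means in WT and KO were 1151 and 1114 CPM at 0 h and 2951 and 3021 CPM at 24 h. The rise was there under both scalings, and its size depends on the scaling, being larger with raw library size. The 15 mitochondrial genes without Lars2 summed to 239 ± 5.61 and 239 ± 11.98 CPM at 0 h and to 243 ± 16.7 and 258 ± 18.3 CPM at 24 h, in WT and KO. Those 4 groups differed by about the spread between replicates. Scaled by raw library size instead of TMM, the means were 219.97 and 223 CPM at 0 h and 257 and 284 CPM at 24 h, so whether this sum is level or somewhat higher at 24 h depends on the scaling. Lars2 alone was 85.4% ± 5.48 of the mitochondrial sum in WT and 84.1% ± 4.90 in KO at 0 h, and 68.2% ± 1.82 and 65.6% ± 5.87 at 24 h, so a sum over all 16 would mostly report that gene.

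**Figure D3:**
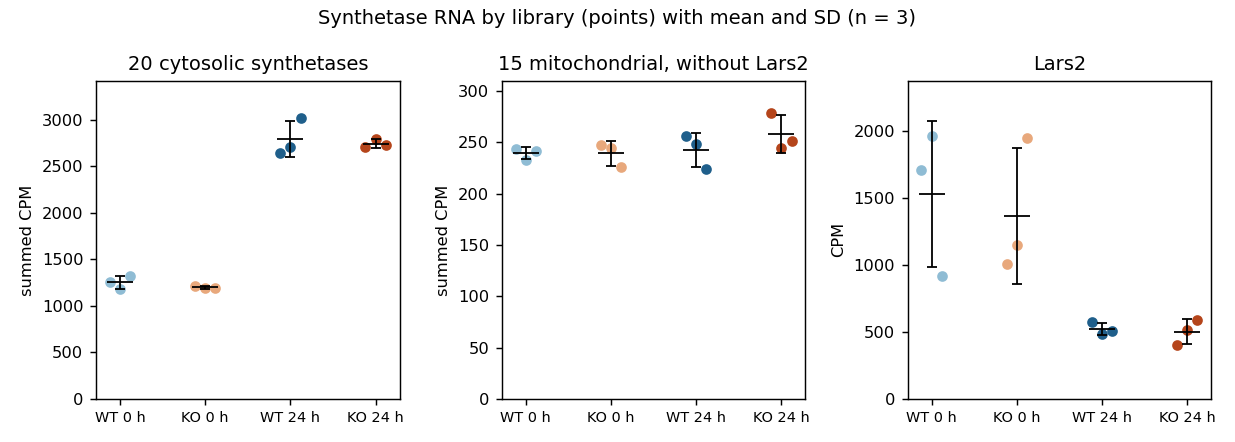
Summed CPM of the 20 cytosolic genes, summed CPM of the 15 mitochondrial genes other than Lars2, and CPM of Lars2, with each library as a point and bars for the group mean and SD (n = 3), axes from 0. The cytosolic sums separate 24 h from 0 h, the mitochondrial sums without Lars2 overlap between 224 and 279 CPM, and Lars2 is lower at 24 h.

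Levels of different genes were compared per kb of the exons annotated for each in GENCODE M21. These lengths join all annotated transcripts and can far exceed the coding length. For Mars2 they were 11294 against 1758 coding bases, and for Eprs 18102 against 4536. The class medians and ranks that follow depend on this choice, and levels per kb of coding length were not computed. The median cytosolic level was 12.8 CPM per kb in WT and 13.4 in KO at 0 h, and 21.8 and 20.1 at 24 h. The median mitochondrial level was 2.26 and 2.49 CPM per kb at 0 h and 2.57 and 2.89 at 24 h. Wars stood at rank 12 of the 36 genes in WT at 0 h (12.7 CPM per kb) and at rank 1 at 24 h (86.8, with 113 in KO). Lars2 held rank 1 in WT at 0 h with 138 CPM per kb and rank 6 at 24 h with 47.1.

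Each mitochondrial gene was also set against its cytosolic counterpart in the same library, as the log2 ratio of their CPM after adding 0.5, which gave 16 pairs, with Farsa set against Fars2 and Eprs against both Ears2 and Pars2. In 12 of the 16 pairs the ratio in all 6 libraries at 24 h lay above that in all 6 at 0 h. The mean ratio was higher at 24 h in 16 pairs in WT and 15 in KO, with median differences of 1.29 and 1.47. The widest shifts were in Lars against Lars2 (3.08 in WT and 3.03 in KO), Cars against Cars2 (2.92 and 2.85) and Wars against Wars2 (2.596 and 3.02). The 4 pairs that overlapped were Farsa with Fars2, Hars with Hars2, Rars with Rars2 and Eprs with Pars2, whose differences in WT were 0.25, 0.50, 0.29 and 0.64. The pairs are a description with no test.

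**Figure D4:**
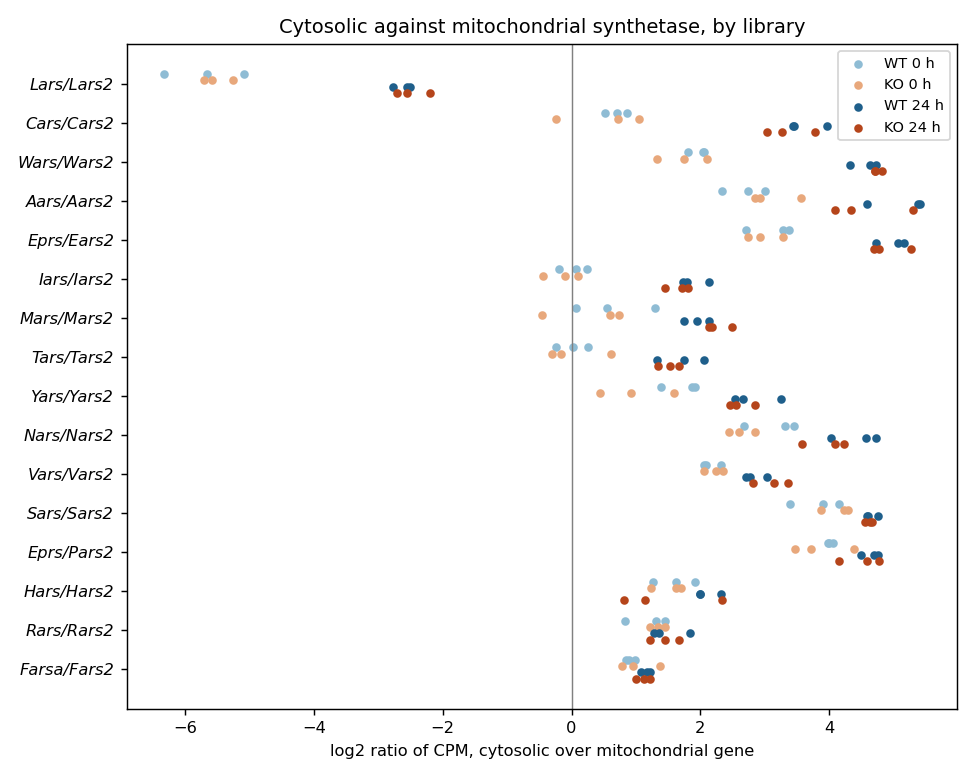
Log2 ratio of cytosolic to mitochondrial synthetase CPM (0.5 CPM added to each) for 16 pairs, with each library as a point. In 12 pairs the 6 libraries at 24 h lie above the 6 at 0 h, while the ratios of Farsa to Fars2, Hars to Hars2, Rars to Rars2 and Eprs to Pars2 overlap between times.

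The second question was whether cells without Sirt2 differed in synthetase RNA. At 0 h, 0 of 36 genes passed in either direction by edgeR's quasi-likelihood test and 0 by DESeq2, beside 0.118% of all genes higher and 0.228% lower, and 1 of the 36 had an unadjusted p below 0.05, as 8% of all genes did. That gene was Gars, at 61.0, 77.9 and 65.0 CPM in WT and 48.9, 55.5 and 52.2 CPM in KO. Its KO libraries were all below the WT ones, a separation that 6.37% of all genes showed in that direction and 6.04% in the other (log2 fold change -0.39, SE 0.106, edgeR adjusted p = 0.126). Of the 36, 1 gene separated in the other direction, the mitochondrial Yars2, at 5.68 to 7.10 CPM in WT and 7.91 to 8.85 CPM in KO. The CD8 marker Cd8b1 and, alone among the 3 tested B cell markers, Cd22 also differed between these groups. Their part in the values at 0 h was not tested. The medians of the log2 fold changes were -0.07 for the cytosolic and 0.0085 for the mitochondrial genes.

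At 24 h, Wars alone passed, as higher in KO, among 0.182% of all genes called higher and 0.0911% lower. The KO libraries (380.2, 383 and 408 CPM) lay above the WT libraries (290.1, 304 and 304 CPM) without overlap. The fold was 1.30 (log2 0.38, SE 0.0858, edgeR adjusted p = 0.0256). The call was kept under the 6 other settings that used all libraries of both groups (adjusted p from 0.00245 to 0.0438), and lost whenever any 1 of the 6 libraries was left out, with log2 values of 0.348 to 0.397 and edgeR adjusted p from 0.0609 to 0.321. At 0 h Wars had a log2 fold change of 0.02 between genotypes (SE 0.102, edgeR adjusted p = 0.983).

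Below the threshold at 24 h, Rars and Kars had unadjusted p below 0.05, with log2 fold changes of -0.24 and -0.20 (edgeR adjusted p = 0.66 and 0.696), while 7.06% of all genes had one. The KO libraries were all lower than the WT libraries for 4 of the 20 cytosolic genes, Cars, Dars, Eprs and Rars, and all higher for Wars alone, where 7.19% and 5.74% of all tested genes showed such a separation. Of the 16 mitochondrial genes, 1 was all lower, Mars2, at 11.4 to 12.6 CPM in KO and 12.9 to 15.9 CPM in WT, and 0 were all higher. The medians at 24 h were -0.08 for the cytosolic and 0.07 for the mitochondrial genes. Neither class was tested as a whole.

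**Figure D5:**
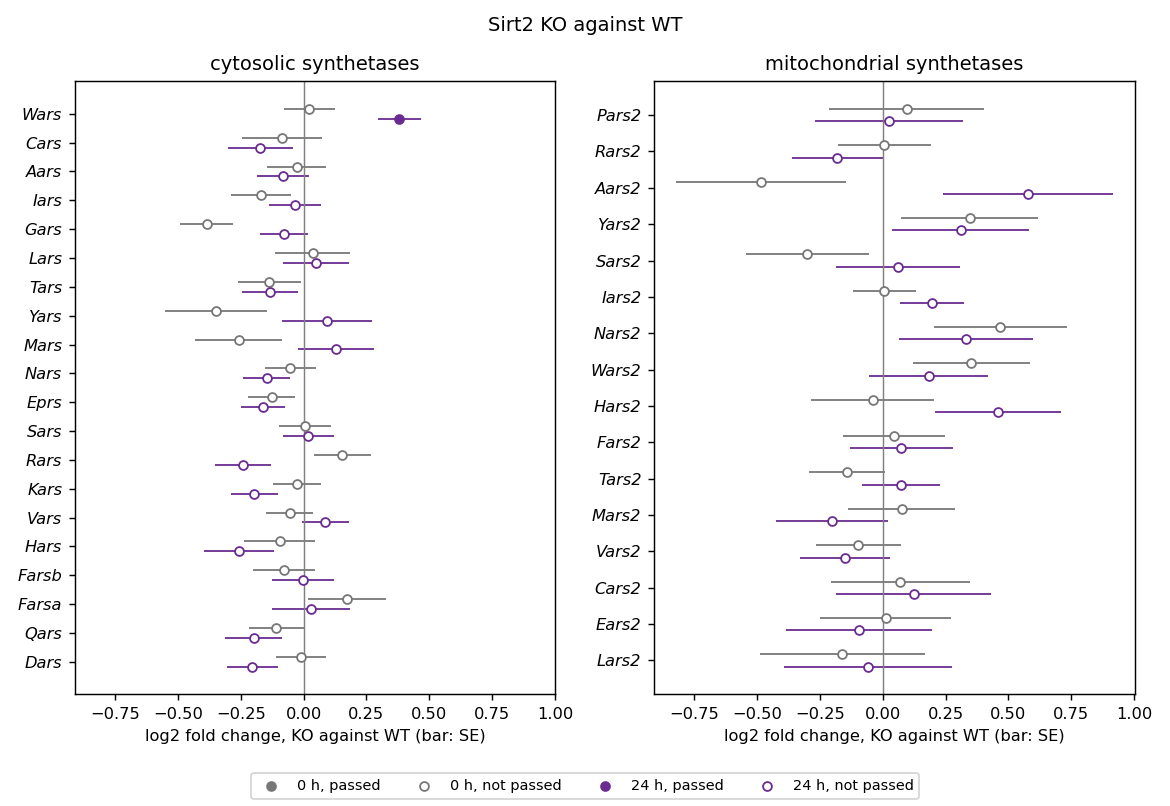
Log2 fold change of KO against WT at 0 h (grey) and 24 h (purple) for the 20 cytosolic (left) and 16 mitochondrial (right) synthetase genes, with bars for the standard error and filled points for genes that passed the test. Wars at 24 h, at 0.38, is the single filled point, and the low mitochondrial genes carry the widest bars.

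Whether the change over time differed between genotypes was tested as an interaction. By edgeR's quasi-likelihood test 0 of 36 synthetases passed, and 0 by DESeq2, where 0.00911% of all genes passed, a single gene. At an unadjusted p below 0.05 stood 4 of the 36, Gars, Rars, Wars and Aars2, beside 5.24% of all genes. The interaction for Wars was log2 0.36 (SE 0.133, edgeR adjusted p = 0.84), for Gars 0.31, for Rars -0.40 and for Aars2 1.06. The rise of Wars is therefore not shown to be larger in KO, although Wars at 24 h passed between genotypes.

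The genes around the synthetases were read from lists of their partners, whose counts stand beside the 20.2% of all genes higher and 20.5% lower in WT, and 19.4% and 21% in KO. Of 9 genes that act with cytosolic charging, 3 rose and 1 fell in WT, and 2 rose and 1 fell in KO, and the median log2 fold change of the 9 was -0.14 in WT and 0.12 in KO. Xpot, which exports transfer RNAs from the nucleus, read 31.0, 32.6 and 30.8 CPM in WT and 31.0, 30.2 and 27.1 CPM in KO at 0 h, and 112, 126 and 132 CPM in WT and 123, 121 and 116 CPM in KO at 24 h. The times were separated about as clearly as for Aars, with log2 fold changes of 1.97 in WT and 2.02 in KO (edgeR adjusted p = 5.51e-20 and 4.82e-20). Ppa1, the cytosolic pyrophosphatase that removes the pyrophosphate released by charging, rose by log2 1.27 and 1.66 (edgeR adjusted p = 2.71e-11 and 3.2e-14). Dtd1, a D-aminoacyl-tRNA deacylase, fell by 0.73 and by 0.55 on the log2 scale (edgeR adjusted p = 0.00151 and 0.0244), and Dtd2, of the same activity, passed as higher in WT (0.96, adjusted p = 0.0159) and not in KO (0.40, 0.342).

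Of the mitochondrial charging partners, 8 of the 9 listed were found, 0 passed in WT by edgeR and 1 rose in KO, the methionyl-tRNA formyltransferase Mtfmt (log2 0.64, edgeR adjusted p = 0.0196; in WT 0.53 and 0.0515). Of 9 mitochondrial translation factors, 0 passed in WT by edgeR, and in KO Gfm1 rose (0.44, adjusted p = 0.0298) and Tufm fell by 0.34 (adjusted p = 0.019), Gfm1 and Tufm being the elongation factors G and Tu of mitochondria. In WT, Mtfmt (1 of 8) and Gfm1 and Tufm (2 of 9) had unadjusted p below 0.05 by edgeR. DESeq2 was fitted to all genes, and its values for these lists are not given here. Of 7 cytosolic elongation factors, 1 passed as higher and 1 as lower in WT, and 2 as higher and 2 as lower in KO. Eif5a rose in both genotypes (0.68 and 0.73) and Eef1a1 fell in both, by 0.25 and by 0.37 on the log2 scale. The other gene higher in KO was Eef1e1 (0.90), counted in this list as well as among the scaffold subunits above. The other gene lower in KO fell by less than Eef1a1.

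Genes of the Gcn2 and Atf4 response, to which several synthetases belong, were counted from a list without synthetases. Of its 23 genes, 22 were tested, and 17 rose and 1 fell in each genotype, where 20.2% of all genes passed as higher in WT and 19.4% in KO, with median log2 fold changes of 1.70 in WT and 1.90 in KO. Asns, asparagine synthetase, was at 0.139 to 1.25 CPM in WT and 0 to 0.643 CPM in KO at 0 h, and at 24.3 to 37.8 CPM in WT and 30.8 to 41.6 CPM in KO at 24 h. Atf3, a transcription factor of the same response, rose by log2 4.97 and 5.17. Chac1, a glutathione-degrading enzyme, had 0 reads in KO at 0 h and was at least 134-fold higher at 24 h, against a floor of 3 reads over the group, while in WT its log2 fold change was 6.30. Slc7a11, a subunit of the cystine transporter, was at least 28.3-fold higher in KO by the same floor, and 114-fold in WT from a single read at 0 h (95% interval 20 to 4530, counting error only).

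Ppp1r15a, which reverses the response by dephosphorylating eIF2 alpha, was the gene of the list that fell, by 2.91 in WT and by 2.95 in KO on the log2 scale. Atf4 RNA itself rose, with a log2 fold change below the median of the cytosolic synthetases, from 215, 208 and 247 CPM to 287, 288 and 326 CPM in WT and from 214, 194 and 170.01 CPM to 250.04, 293 and 279 CPM in KO. The log2 fold changes were 0.43 and 0.50 (edgeR adjusted p = 0.000149 and 1.69e-05). Atf4 is known to be controlled mainly at translation, which RNA does not show. Of 5 tested genes on the Myc list, Myc and Mxd1 rose and Mxd4, Mlx and Max fell in both genotypes. Myc, with log2 fold changes of 1.20 in WT and 1.63 in KO, was the only gene of these partner lists that passed between genotypes, lower in KO at 0 h (-0.50, SE 0.107, edgeR adjusted p = 0.0236), with 0 h levels of 317, 259 and 299.9 CPM in WT and 256, 177 and 185 CPM in KO, in the same libraries in which Cd8b1 was higher and Cd22 lower. In KO against WT at 0 h, 19 of the 22 tested Gcn2 and Atf4 genes were negative and 3 positive (median log2 -0.22). Of these 22, 7 had an unadjusted edgeR p below 0.05, beside 8% of all genes. At 24 h, 18 were negative and 4 positive (median -0.08), and 2 had such a p, beside 7.06% of all genes. The list was not tested as a whole.

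The elements printed at the start can now be set beside these values. A match to TGATGNAA was found in 5 of 13 cytosolic promoters (38.5%), those of Aars, Gars, Iars, Tars and Yars, and in 0 of 14 mitochondrial ones. Counted per gene, with a match in any of its windows, 4.51% of all 27025 genes with a RefSeq promoter held one. The share was 2.72% of the 8818 tested genes with a promoter and 3.96% of the 1340 of these that rose in both genotypes. Counted from the start site, the first base of the match lay at -112 and 10 in Aars, -30 in Gars, 8 in Iars, -15 in Tars and 4 in Yars. The 5 carriers had a median log2 fold change of 1.58 in WT and 1.89 in KO, the 8 cytosolic genes with a promoter and no match 0.54 and 0.44, and the 7 whose promoter was not matched 1.53 and 1.43. Wars, Cars and Lars were among those 7. The E-box CACGTG was found in 4 of the 13 cytosolic promoters (Aars, Farsb, Iars, Tars) and 1 of the 14 mitochondrial ones (Ears2), beside 12.2% of the tested genes with a promoter. Farsb did not pass over time and Ears2 was lower. A match is a description of letters and not of binding, and genes with no match in this window may hold the element elsewhere.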

How the data were processed

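Read counts per gene symbol were used as deposited, 1 table per library, and were raw whole numbers. The submitters' processing notes name STAR 2.6.0c, DESeq and the build hg19, which is human while the symbols are of mouse, which leaves the build of the counts unknown. Which program counted the reads, and whether by strand, is not given in the sources used here. Per the labels' protocols, libraries were made from total RNA (NuGen Ovation Mouse), with probe-based depletion of ribosomal RNA. Each table had 5 closing entries without a gene, left out of library sizes and tests: no feature held 22.8% to 35.4% of reads, ambiguous 0.412% to 0.576% and not unique 25.7% to 30.9%. Precursor ribosomal RNA (Rn45s) took 7.95% to 17.5% of gene reads.

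Genes were filtered with filterByExpr (minimum count 10, minimum total 15) and tested with edgeR 4.0.16 in R 4.3.3: TMM factors, robust quasi-likelihood fit of the 4 groups of 3 libraries, no covariates, Benjamini-Hochberg adjustment over 10981 genes, threshold 0.05. Standard errors are the absolute log2 fold change divided by the square root of F. The script was tested on simulated data with known changes at 24 h in WT. It recovered 74% of 100 genes changed 2-fold, up or down, and 53.5% of 99 changed 1.5-fold. A gene that did not pass may therefore still differ. Members and lists were chosen with earlier results of these data known. Named over time were the 6 genes of each class with the largest mean change and those against their class's direction, and of each partner list up to 4 genes that passed with the largest change. Other settings were DESeq2 1.42.0, its size factors, no count filter, Rn45s left out, only the groups compared, replicate number as a block and each library left out. Levels per kb use GENCODE M21 exon lengths, joined over all annotated transcripts, and not coding lengths. Promoters came from RefSeq (GRCm38.p6). Count precision is set by depth, and intervals cover counting error only.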

Additional observations from a re-analysis of the deposited data

How the results depend on the processing

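The 36 genes gave 50 tested results, with 620 values under other settings: 581 kept direction and side of the threshold, 28 no longer passed, 10 newly passed and 1 changed sign, Aars2 at 24 h against 0 h in WT without the third WT library at 0 h (log2 0.0253 against -0.227, edgeR adjusted p = 0.968, and down to -0.4401 without others). The cause was not tested. The count of cytosolic genes higher at 24 h was 15 to 16 in each genotype with each library left out. Mitochondrial genes higher at 24 h in KO numbered 2 with RLE factors, with no filter, with Rn45s left out and with only the 2 groups compared, and 0 with DESeq2, against 1. Those lower at 24 h in WT numbered 1 with no filter and 1 with DESeq2, against 2, and in KO 1 with no filter.

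Same-numbered libraries were only weakly correlated (from -0.0884 to 0.0934). The same number was the best match in 6 of 12 pairs, most of them over time. With 3 libraries per group these values cannot exclude pairing. With the replicate number as a block, Wars between genotypes at 24 h kept log2 0.38 (edgeR adjusted p = 0.0438), no synthetase count between genotypes or in the interaction changed, and genes in the interaction fell from 1 to 0, as with RLE factors and with Rn45s left out; with no filter 2 were higher. Over all genes at 0 h between genotypes, 20 were higher and 39 lower with no filter and 12 lower with only the 2 groups compared, against 13 and 25.

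With each library left out in turn, genes higher in KO at 0 h ranged from 8 to 13 and lower from 9 to 25, and at 24 h higher from 11 to 24 and lower from 2 to 7. Cytosolic genes higher in KO at 24 h were 0 in every such refit (0 to 0), against 1, and cytosolic genes lower over time in KO 0 to 1. Mitochondrial genes lower over time in WT were 1 (1 to 1), against 2, and in KO 1 to 2, with 0 to 3 higher in KO. The interaction gave 0 to 1 genes lower. Median log2 fold changes over time ranged from 1.15 to 1.33 (cytosolic, WT), -0.0367 to 0.0616 (mitochondrial, WT) and 0.0697 to 0.206 (mitochondrial, KO), those of cytosolic genes between genotypes at 24 h from -0.14 to 0.0048, and in the interaction from -0.0602 to 0.0644. Depth limits the mitochondrial genes other than Lars2, 13 of 15 of which reach at most 31.8 CPM.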
